A study of Arabidopsis thaliana with 12 samples.

Results

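The genes described here are 4 nuclear genes for proteins of the large subunit of the plastid ribosome, RPL5 (AT4G01310, probe 4297), RPL17 (AT3G54210, probe 1739), RPL29 (AT5G65220, probe 1081) and RPL34 (AT1G29070, probe 511), together with PAC (PALE CRESS, AT2G48120, probe 2725). The array had 3439 probes, 692 of which were assigned to 1 gene only, and each of these 5 genes has such a probe. They were picked by probe and gene ID with their levels in both groups already known, so their differences between the groups are given as descriptions, with standard errors but without p-values. Total RNA was measured with a 1-channel expression array in wild-type Arabidopsis thaliana, the model plant, of the Columbia 0 ecotype. One group of 6 samples came from plants exposed to darkness for 1 h, and the other 6 samples came from plants that remained light adapted. The labels give no tissue, plant age or light intensity, and do not state whether each sample is a plant or culture of its own.

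The plastid ribosome is of bacterial type, and it translates the messages encoded in the plastid's own genome, among them core subunits of the photosystems and the large subunit of Rubisco. Most of its proteins are encoded in the nucleus, made in the cytosol and imported, so their supply has to be matched to RNAs made inside the organelle. In Escherichia coli, L5 holds the 5S ribosomal RNA in place, while L17 and L29 lie around the mouth of the tunnel through which the new protein leaves. PAC is needed for the maturation of plastid RNA, ribosomal RNA included, and for the development of chloroplasts. Plants that lack it are pale.

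Intensities were deposited on a linear scale with the same upper end in every sample, reached by 3 to 8 probes per sample. Neighbouring sample numbers (1 and 2, 3 and 4, 5 and 6) of a group resembled each other most in all 12 samples, so each pair was averaged and every mean below has n = 3. A background limit was taken for each sample from probes whose pair partner read 0. It lay between 0.0850 and 0.194 in light-adapted samples 3 to 6 and between 0.0289 and 0.0501 in the other 8 samples, so dim probes were measured less well in those 4. Of 14 marker genes of green tissue 4 had a probe of 1 gene only. LHB1B2, PRK and PSBW were above the limit in all 12 samples, whereas SBPASE was listed at or near 0 throughout. These 3 did not move one way: the antenna gene LHB1B2 had 33.0 to 42.1 in the dark and 42.1 to 49.4 in the light, the Calvin cycle gene PRK had 1.86 to 3.0 in the dark and 4.01 to 5.58 in the light, and the photosystem gene PSBW had 28.3 to 42.1 in the dark and 14.4 to 29.3 in the light. None of the 3 passed limma's test (adjusted p = 0.103, 0.0673 and 0.20). None of 7 root markers had a probe of 1 gene only.

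In the dark, RPL29 and PAC had lower intensities than in the light, RPL17 had a higher one, and RPL5 and RPL34 had overlapping intensities in the 2 groups. In 3 of the 5 genes (RPL17, RPL29 and PAC) the 6 dark samples did not overlap with the 6 light-adapted ones, which was the case for 15.3% of all probes. RPL29 and PAC, 2 of the 5, were among the probes that passed limma's test at a Benjamini-Hochberg adjusted p under 0.05, as were 7.76% of all 3439 probes. When limma was fitted with a replicate block for the pair number, none of the 5 passed and neither did any other probe (0 of 3439, with 798 at an unadjusted p under 0.05). Without dark samples 1 and 2 neither RPL29 nor PAC passed, and without dark samples 3 and 4 or 5 and 6 PAC alone did. Calls fell over the whole array in these 3 settings, to 13, 97 and 63 of 3439 probes, against 267 with all samples. Without light-adapted samples 3 to 6 only samples 1 and 2 were left in that group. The log2 differences were then -1.43 for RPL29 and -1.35 for PAC. Nothing is read from these counts, because the genes had been chosen with these values known. The median log2 difference (dark minus light) was 0 over all probes. Over the 5 genes, which differed in sign, it was 0.38, which is the value of RPL5 alone.

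**Figure D1:**
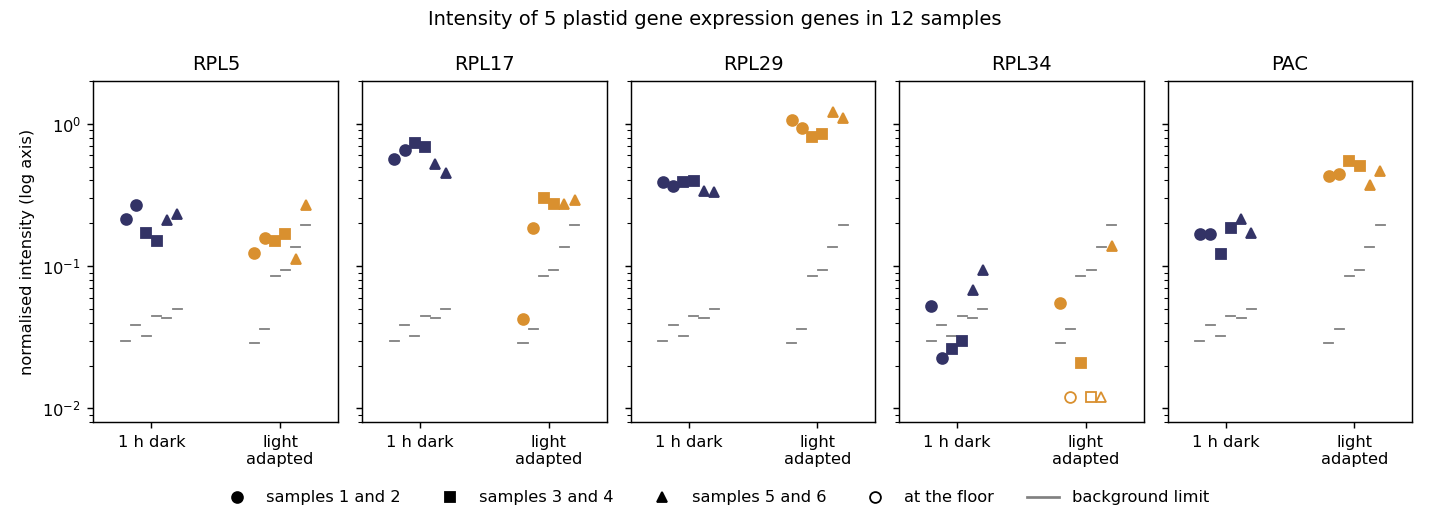
Normalised intensity (log axis) of RPL5, RPL17, RPL29, RPL34 and PAC in 6 samples after 1 h of darkness (left in each panel) and 6 light-adapted samples (right). Each point is 1 sample, its shape shows the pair of neighbouring sample numbers, open points stand at the floor of 0.0121, and short grey lines show that sample's background limit. The groups lie apart for RPL17, RPL29 and PAC and overlap for RPL5 and RPL34.

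RPL29 was above the background limit in all 12 samples. Its normalised intensity was lowest at 0.330, had a median of 0.378 and was highest at 0.396 in the dark, against 0.812, 0.994 and 1.20 in the light. Every dark sample was thus below every light-adapted one, and the highest dark value was less than the lowest light-adapted value also before normalization. The mean was 0.369 ± 0.0309 in the dark and 0.992 ± 0.162 in the light (SD, n = 3 each). The difference of mean log2 values was -1.42 (SE 0.15), or a level 2.67 times higher in the light. In a bulk sample, fewer cells that express a gene and less of its RNA per cell cannot be told apart. Within the dark group the highest sample exceeded the lowest 1.20-fold, and within the light group 1.48-fold. The differences between samples of the same number ran between -1.83 and -1.05 on the log2 scale, lower in the dark for all 6 numbers.

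PAC, the RNA maturation factor, was also lower in the dark. Its lowest, median and highest normalised intensities were 0.121, 0.170 and 0.216 in the dark and 0.374, 0.454 and 0.551 in the light. No dark sample reached the lowest light-adapted one, and all 12 were above the background limit. Means were 0.171 ± 0.0204 in the dark and 0.462 ± 0.0578 in the light (SD, n = 3 each). The log2 difference was -1.44 (SE 0.15), a level 2.71 times higher in the light. Dark sample 3, at 0.121, was the lowest of the 12, while its pair partner, sample 4, had 0.184. For the same sample number the log2 difference lay between -2.19 and -0.80, and it was below 0 for all 6 numbers.

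RPL17 went the other way. Its lowest, median and highest normalised intensities were 0.454, 0.615 and 0.735 in the dark, against 0.0424, 0.275 and 0.302 in the light. All dark samples were above all light-adapted samples after normalization, whereas in the values as deposited the lowest dark sample (0.351) was below the highest light-adapted one (0.395). The means were 0.603 ± 0.112 in the dark and 0.228 ± 0.0989 in the light (SD, n = 3 each). The mean log2 values differed by 1.62 (SE 0.54), with a higher level in the dark for all 6 sample numbers (0.65 to 3.75).

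The spread of RPL17 came mainly from 1 light-adapted sample. Light-adapted sample 1 had 0.0424, close above its background limit of 0.0289, its pair partner, sample 2, had 0.186, and light-adapted samples 3 to 6 had 0.275 to 0.302. Samples 1 and 2 thus differed by 2.13 on the log2 scale for RPL17, while the same 2 samples differed by 0.18 for RPL29 and by 0.03 for PAC. Without light-adapted sample 1 the log2 difference of RPL17 was 1.28, and without light-adapted samples 1 and 2 it was 1.08. Without light-adapted samples 3 to 6, whose background limit was higher, it was 2.63, since only samples 1 and 2 were then left in that group.

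RPL5 overlapped between the groups. Its lowest, median and highest normalised intensities were 0.150, 0.213 and 0.267 in the dark and 0.113, 0.154 and 0.271 in the light. Light-adapted sample 6 was the highest of all 12 samples and its pair partner, light-adapted sample 5, was the lowest and was below its background limit of 0.136. The means were 0.208 ± 0.0425 in the dark and 0.164 ± 0.0255 in the light (SD, n = 3 each). Mean log2 values differed by 0.38 (SE 0.19). For 4 of the 6 sample numbers the dark sample was the higher one. This difference was 0.16 without light-adapted sample 5, 0.59 without light-adapted sample 6 and 0.445 without both. It was 0.23 with samples scaled to a common median and 0.032 without normalization.

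RPL34 was near background. Its intensity exceeded the limit in 3 of 6 samples after darkness and in 1 of 6 in the light. The lowest, median and highest normalised values were 0.0225, 0.0410 and 0.0946 in the dark, against 0, 0.0135 and 0.139 in the light. The light-adapted group thus held both the lowest and the highest of the 12 values, and 2 of its samples were listed at 0. The highest of them, in light-adapted sample 6, was still below that sample's own limit of 0.194. The fitted log2 difference of 0.73 (SE 0.56) depended on the floor set before taking logarithms: it was 1.74 with a floor at the 1st percentile of positive values and -0.003 at the 20th, so these data do not settle its direction.

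**Figure D2:**
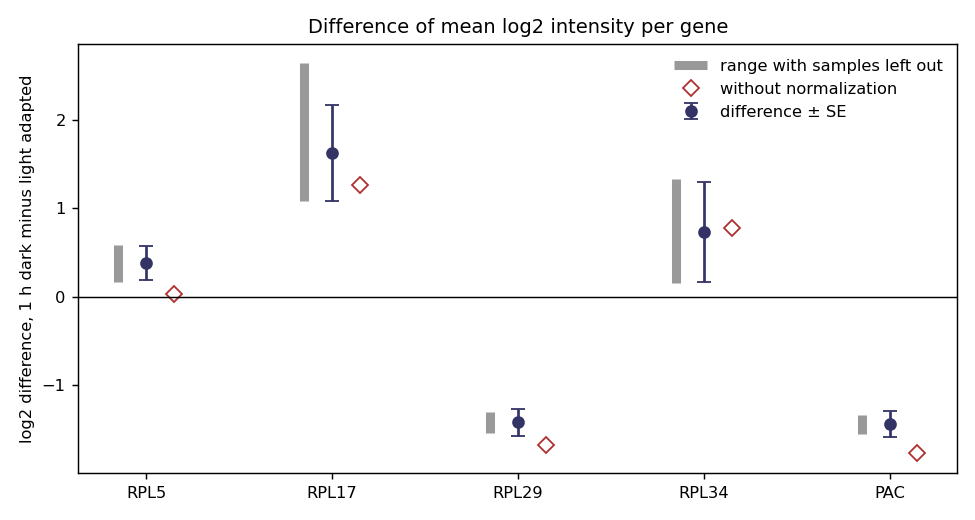
Difference of mean log2 intensity (1 h dark minus light adapted) for each gene. Points and bars are the difference and its standard error from 3 averaged replicates per group, grey bars span all settings in which samples were left out, and open diamonds give the difference without normalization. The bars of RPL17 and RPL34 are the longest, and RPL5 comes to 0.032 without normalization.

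Ratios between 2 genes within 1 sample do not depend on a factor common to all values of that sample, whereas quantile normalization can change them. The change of such a ratio between the groups is the difference of the 2 genes' own log2 differences before normalization. It therefore restates values that were known when the genes were chosen, and the ratios are given as a description free of such a factor. RPL34, with values at 0, was left out, which leaves 6 pairs of genes. The log2 ratio of RPL29 to PAC, taken on the deposited values, was 1.15 ± 0.245 in the dark and 1.05 ± 0.414 in the light (SD, n = 3 each). It differed by 0.09 (SE 0.28) between the groups, and its range of 0.74 to 1.63 in the dark lay inside that of 0.56 to 1.70 in the light. The lower values of RPL29 and PAC in the dark were therefore of about the same size within this error, which does not exclude a difference smaller than it.

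The ratio of RPL17 to RPL29 gave the widest separation of any pair of ribosomal genes. RPL17 over RPL29 had a log2 ratio of 0.51 to 0.88 in the 6 dark samples and of -4.23 to -1.46 in the 6 light-adapted ones. The difference was 2.94 (SE 0.48) on the log2 scale, and the dark values of 3 averaged replicates had an SD of only 0.112 against 0.821 in the light. Light-adapted sample 1 held the value of -4.23, and the next lowest was -2.10. For RPL17 over PAC the difference was 3.03 (SE 0.52), with 1.39 to 2.52 in the dark and -3.12 to -0.40 in the light.

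The ratios of RPL5 to RPL29 and to PAC mostly carry the lower values of RPL29 and PAC in the dark, because RPL5 itself differed by only 0.032 before normalization. The log2 ratio of RPL5 to RPL29 was -1.34 to -0.48 in the dark and -3.53 to -2.02 in the light, a difference of 1.71 (SE 0.22). For RPL5 over PAC the values were -0.26 to 0.68 in the dark and -1.94 to -0.77 in the light, with a difference of 1.80 (SE 0.19). RPL5 over RPL17 overlapped, with -2.08 to -1.05 in the dark and -1.43 to 1.50 in the light.

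**Figure D3:**
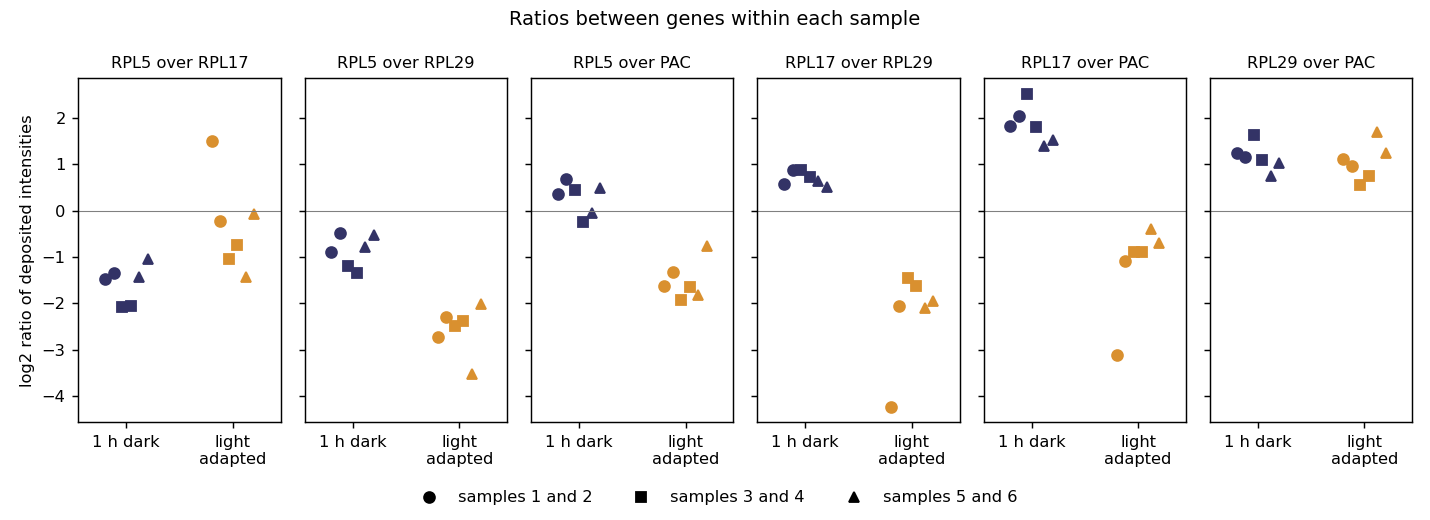
Log2 ratio of the deposited intensities of 2 genes within the same sample, for the 6 pairs without a value at 0, in 6 dark samples (left in each panel) and 6 light-adapted samples (right). Point shapes show pairs of neighbouring sample numbers. The groups overlap for RPL5 over RPL17 and for RPL29 over PAC and lie apart in the other 4 panels.

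The probes with the ID next to that of a gene overlapped between the groups in all 6 cases. The probe after that of RPL29 was lower in the dark like RPL29 itself, with a log2 difference of -0.88 (SE 0.29), though at normalised intensities of only 0.0299 to 0.0959 in the dark and 0.0529 to 0.168 in the light. The probe before that of RPL17 had 0.381 to 0.595 in the dark and 0.202 to 0.637 in the light, and its light-adapted range enclosed the dark one (log2 difference 0.24, SE 0.36). Next to PAC, 1 probe was listed at 0 in 11 of 12 samples and the other overlapped, with 0.0968 to 0.279 in the dark and 0.0729 to 0.359 in the light (log2 difference 0.37, SE 0.64). The probes after those of RPL5 and RPL34 had log2 differences of -0.85 (SE 0.68) and 0.17 (SE 0.77). In 1 further setting a running median over 51 probe IDs was subtracted in each sample. The log2 differences were then 0.209 for RPL5 (0.379 before), 1.265 for RPL17 (1.622) and -1.434 for RPL29 (-1.416). For RPL34 the value was 0.706 (0.728 before) and for PAC -1.528 (-1.44). The part of neighbouring probes in these results was not tested further. Whether the IDs follow positions on the array is not given in the sources used here.

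Of the 41 nuclear genes listed for plastid ribosomal proteins, 6 had a probe of their own, the 4 above and 2 of the small subunit. AT3G13120, for plastid S10, had 0.0199 ± 0.0164 in the dark and 0.0219 ± 0.0216 in the light (SD, n = 3 each) and exceeded the limit in a single sample of 12. AT1G64510, for plastid S6, was above it in none, and 5 of its 12 values were listed at 0. Neither passed limma's test (adjusted p = 1.0 and 0.596), and a difference was not detectable at this signal.

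Other genes of plastid gene expression were scarce among the probes with 1 gene. None of 14 listed genes for plastid translation and ribosome assembly and none of 23 for plastid transcription had such a probe. Of 27 listed genes for plastid RNA maturation, PAC and CRR21 were measured. CRR21, a pentatricopeptide repeat protein that is required for the editing of a plastid messenger RNA, had 0.0894 to 0.150 in the dark and 0.0429 to 0.0997 in the light, so that the groups overlapped slightly. Its mean was 0.110 ± 0.0119 in the dark and 0.0696 ± 0.00568 in the light (SD, n = 3 each). In mean log2 value CRR21 was 0.72 higher in the dark (SE 0.11, limma adjusted p = 0.0308), opposite in sign to PAC. It was above the background limit in 6 of 6 dark samples and in 2 of 6 light-adapted ones. The call was not stable, since it was lost in 21 of 31 other settings (adjusted p 0.0235 to 0.289 over all of them), the replicate block included (adjusted p = 0.118), and by leaving out dark sample 1 or 6 or light-adapted sample 1, 2, 3, 4 or 6 (up to 0.232).

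The profile of each gene over the 12 samples was set against those of the other genes with a probe of their own and values above the floor in all samples (343 or 344 genes). Likeness was the root mean square difference between log2 profiles, each centred on its own mean. Closest to RPL29 were AT5G03370 at 0.25 and AT3G44570 at 0.28, where the median gene was at 0.93. AT5G03370 had 0.196 to 0.302 in the dark and 0.435 to 0.580 in the light. It was also the second closest to PAC, at 0.34, after DI21, whose name stands for a drought-induced gene, at 0.32 (median gene 0.94). DI21 had 0.0318 to 0.102 in the dark and 0.165 to 0.236 in the light.

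The profiles closest to RPL17 were those of AT1G02260 (0.47) and AT1G78620 (0.55), against 1.24 for the median gene. AT1G02260 had 0.180 to 0.376 in the dark and 0.0251 to 0.106 in the light, with no overlap. AT1G78620 had 0.586 to 0.738 in the dark and 0.108 to 0.486 in the light. In both, as in RPL17, light-adapted samples 1 and 2 were the lowest of the 12. RPL5 was closest to AT4G20300 (0.25) and AT2G02590 (0.30, median gene 0.76). AT4G20300 had 0.331 to 0.406 in the dark and 0.251 to 0.380 in the light, which overlap as those of RPL5 do. For RPL34 the closest genes, AT2G45500 and AT3G27110, were still 0.81 and 0.83 away, against 1.31 for the median gene. Among the 5 genes themselves, RPL29 and PAC were 0.34 apart, about as close as PAC was to its second closest gene, and the other pairs were 0.96 to 1.71 apart. Likeness is a description of these 12 samples only, and the difference between the groups, on which the genes were chosen, is a large part of it.

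**Figure D4:**
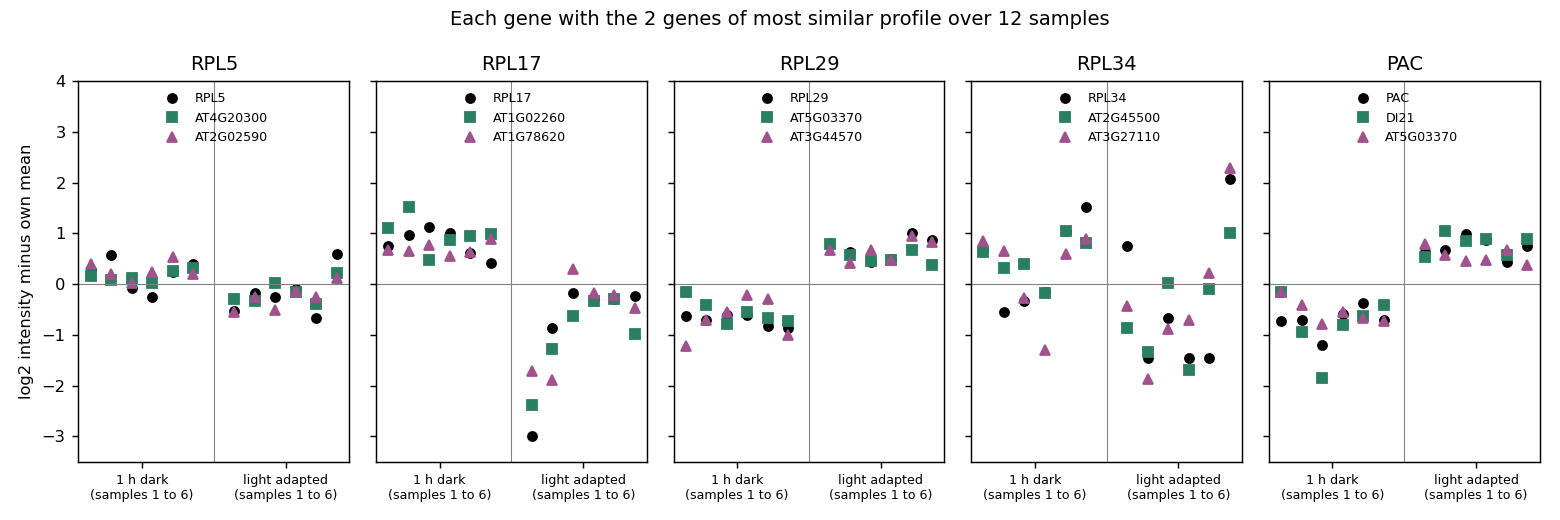
Log2 normalised intensity minus the gene's own mean over 12 samples, for each gene (black circles) and the 2 genes of most similar profile (green squares and purple triangles), with dark samples 1 to 6 on the left and light-adapted samples 1 to 6 on the right of each panel. Light-adapted samples 1 and 2 are lowest for RPL17 and for both of its closest genes.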

How the data were processed

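RNA intensities of 12 samples, 6 after 1 h of darkness and 6 light adapted, were used as deposited. Per the labels, the arrays had 1 channel, and groups and sample numbers were taken from sample titles. How the authors scanned, background-corrected and scaled the arrays is not given in the sources used here. Column medians of the deposited intensity values ranged from 0.0644 to 0.106, so samples were quantile normalized, given a floor of 0.0121 (the 5th percentile of values above 0) and taken to log2. Neighbouring sample numbers were averaged on the log2 scale. Means and SDs are of normalised linear values, whereas log2 differences between the groups are between means of log2 values. limma 3.58.1 (lmFit and eBayes, under R 4.3.3) was run on all 3439 probes for dark minus light, with Benjamini-Hochberg adjustment, without blocks. The labels name no separate plants, so a p-value reflects the spread between samples alone and may be technical. Precision is limited by how many arrays there are.

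Averaging was kept from an earlier analysis of the same values: the correlation of neighbouring numbers on the linear scale was 0.9945 to 0.9986, against 0.920 to 0.978 for other samples of a group. Deviations of same-numbered averaged replicates of the 2 groups correlated across probes at 0.12, 0.146 and 0.208, all over 0.1, so the numbers were taken to pair the samples. This rests on the data, as the labels do not say it. The fit reported here nevertheless leaves the pairing out, so its standard errors and calls are those of unpaired groups, and the fit with the replicate block is given beside the calls it changes.

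The background limit of a sample was the 95th percentile of its normalised values over probes at 0 in the other sample of the pair. Genes were named from the platform annotation and updated by gene ID through RefSeq's table of TAIR10.1 (690 of 692 probes with 1 gene matched, all 5 genes here included). Coordinates are left out because the probes come with no genome build. The 5 genes, the lists and the tests were chosen with earlier results of these data known. Named genes were, by rule, the 5 genes, the measured plastid ribosomal genes, called genes of the other lists and the 2 closest profiles for each of the 5. The gene table used holds no descriptions, so other ribosomal and pentatricopeptide genes could only be searched by these words in their names. This found 44 and 13 genes, none with a probe of 1 gene only, and misses members of these families that are named otherwise, such as CRR21. 1 of 5 pollen and flower markers, AT1G20130, was measured (0.121 ± 0.0427 dark, 0.150 ± 0.0896 light, SD, n = 3, adjusted p = 1.0). Figures were drawn with matplotlib 3.10.9.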

Additional observations from a re-analysis of the deposited data

Results flagged for a closer look

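RPL17 in light-adapted sample 1 stood apart from the other 5 light-adapted samples. Its normalised intensity of 0.0424 was the lowest, and its distance to the nearest other sample was 0.754 of the group's whole range on the log2 scale, above Dixon's 95% critical value for 6 samples. It was the only one of 10 groups of values (5 genes in 2 groups) to exceed it. Chance alone exceeds this critical value in about 1 in 20 groups of values, and 10 groups were looked at. That rate belongs to the critical value and not to the ratio of 0.754 itself. It also assumes independent samples, which neighbouring sample numbers are not here. The cause was not tested.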

How the results depend on the processing

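The 267 changed probes became 155 without normalization, 814 without averaging, 585 with neighbouring numbers as random blocks, 0 with a replicate block for the pair number and 784 with a replicate block for the single sample number. The last 4 differ in the number of samples entered or in residual degrees of freedom. With samples left out there were 13 to 275, and leaving out dark samples 1 and 2, 3 and 4 or 5 and 6 gave 13, 97 and 63. Of the 5 genes, the count that passed was 0 with the replicate block and 0 to 2 with samples left out. RPL17 passed too in the unaveraged fits that counted neighbouring numbers as independent, with and without a block for the sample number. It did not pass with neighbouring numbers as random blocks. Without normalization the log2 differences of RPL29, PAC, RPL5 and RPL17 were -1.68, -1.77, 0.032 and 1.26, shifts of -0.26 to -0.36. RPL34 shifted by 0.042. The median over all probes, those at 0 included, was -0.078 without normalization and 0 with it. All of the closest profiles were lower without normalization too, such as AT4G20300 (from 0.323 to 0.004) and AT5G03370 (from -1.104 to -1.434). The dim AT1G64510 went the other way (from -0.385 to -0.081). The shift was thus not particular to RPL29, PAC, RPL5 and RPL17, and its cause was not tested. RPL34 was 1.74 with the floor at the 1st percentile, where values at 0 are set lower. With samples left out the log2 differences ran from 0.16 to 0.59 for RPL5, from 1.08 to 2.63 for RPL17, from -1.54 to -1.30 for RPL29, from 0.16 to 1.33 for RPL34 and from -1.55 to -1.34 for PAC. Over 31 settings the sign of RPL5 was the same in all and that of RPL34 in 30. Settings that changed only the averaging, the blocks, the variance model or the probes kept returned the same difference and could not turn a sign. For RPL5, which lay above the floor, the same holds for the settings of the floor. For RPL17, RPL29 and PAC, whose groups do not overlap, leaving out samples cannot turn the sign. Above the background limit, RPL34 was found in 8 samples at the 90th percentile and in 0 at the 99th, against 4. Of the 10 closest profiles, 6 remained with the floor at the 20th percentile and 8 or 9 in 3 other settings. The settings for closest profiles and for genes outside the 5 were chosen after seeing the data.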
